A study of Sus scrofa with 3 samples.

Results

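The microRNAs (miRNAs) miR-143 and miR-145 were followed in pig liver through the 4 mature products of their 2 precursors, miR-143-3p and miR-143-5p from mir-143 and miR-145-5p and miR-145-3p from mir-145. They appear in the files as ssc-miR-143-3p, ssc-miR-143-5p, ssc-miR-145-5p and ssc-miR-145-3p. The members were taken by name from the deposited counts, and all 4 were found among the 405 mature miRNAs left after repeated names were removed. Small RNA had been sequenced from male pig livers taken on postnatal day 90, giving 1 library for each of 3 breeds. They were the Enshi black pig (a domestic breed of China), the Chinese wild boar and the Large White pig (a commercial breed of European origin). The labels name no treatment or allele, and they do not say whether a library came from 1 animal or from a pool. No difference below therefore has a replicate check, a difference between breeds cannot be told apart from a difference between animals or libraries, and each interval is a 95% interval that covers counting error only.

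Each miRNA hairpin is cut into 2 strands, named 5p and 3p by the arm they come from, and usually one of them is kept to guide the silencing of target messenger RNAs. In mouse and human, miR-143 and miR-145 are cut from one shared primary transcript that serum response factor and myocardin switch on in smooth muscle cells. miR-145 represses KLF4 and helps to hold these cells in their contractile state. Both miRNAs are abundant in smooth muscle and other mesenchymal cells and scarce in epithelial cells, so in liver they are commonly read as miRNAs of vessel walls, stellate cells and portal fibroblasts. In the RefSeq annotation of the pig assembly Sscrofa 11.1, used here for gene order only, MIR143 and MIR145 stand next to each other, both lie within the span of IL17B, and CSNK1A1 follows them. All 12 member counts were whole numbers on a single precursor each, so none of these reads had been divided with another name.

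The deposited read counts came to 7739853 in Enshi black liver, 7837309 in wild boar liver and 7350179 in Large White liver. miR-122, the defining hepatocyte miRNA, had 2644501, 3090486 and 3040156 reads in the same order and was not at or near 0 anywhere. Levels are given as CPM, counts per 1000000 of the library's counts, scaled by the trimmed mean of M-values (TMM), a method that assumes that most miRNAs do not differ. The TMM factors were 1.24 for Enshi black, 1.08 for wild boar and 0.75 for Large White liver, and values on the plain library total are given where the choice matters.

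Together the 4 products held 3.07% of the miRNA reads in Enshi black liver (exact interval after Clopper and Pearson, 3.05 to 3.08), 2.11% in wild boar liver (2.10 to 2.12) and 1.49% in Large White liver (1.481 to 1.499). miR-143-3p alone made up 88.4%, 86.8% and 86.8% of these reads in the same order. Most reads of the cluster were thus miR-143-3p in each library.

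miR-143-3p, the main product of mir-143, had 209458 reads in Enshi black liver, 143371 in wild boar liver and 94948 in Large White liver. After TMM scaling these were 21882 CPM in Enshi black liver, 17015 CPM in wild boar liver and 17240 CPM in Large White liver. Enshi black liver was the highest, and the other 2 were close to each other on this scale. On library totals the values were 27093 CPM in Enshi black liver, 18323 CPM in wild boar liver and 12930 CPM in Large White liver, so wild boar liver then stood above Large White liver. miR-143-3p was the 9th, 11th and 12th most abundant miRNA of the 3 libraries in that order. In Enshi black liver it stood just below let-7a and miR-29a and above miR-199a-5p and miR-148a-3p. In wild boar liver its neighbours in rank were miR-148a-3p and let-7c above it and miR-125b and miR-99a below it. In Large White liver they were let-7c and miR-142-3p above it and miR-22-3p and let-7f below it. There miR-143-3p took 1.29% of the reads, and miR-142-3p and miR-22-3p took 1.30% and 1.28%.

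miR-145-5p, the main product of mir-145, had 25094 reads in Enshi black liver, 20305 in wild boar liver and 12781 in Large White liver. After TMM scaling these were 2621 CPM in Enshi black liver (2589 to 2654), 2410 CPM in wild boar liver (2377 to 2443) and 2321 CPM in Large White liver (2281 to 2361). The 3 levels lay close together, with Enshi black liver the highest. It ranked 39th in the Enshi black and wild boar livers and 45th in Large White liver.

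The minor products were far scarcer. miR-143-5p had 491, 341 and 253 reads in the Enshi black, wild boar and Large White livers, or 51.3, 40.5 and 45.9 CPM after TMM scaling. Its intervals of 46.9 to 56.0 CPM in Enshi black liver and 40.5 to 52.0 CPM in Large White liver overlapped, as did those of wild boar (36.3 to 45.0) and Large White liver, while those of Enshi black and wild boar liver did not. miR-145-3p had 1931 reads in Enshi black liver, 1125 in wild boar liver and 1441 in Large White liver, or 201.7, 133.5 and 261.6 CPM. It was the only one of the 4 that was highest in Large White liver after TMM scaling, and on library totals it was highest in Enshi black liver (249.8 CPM, against 143.8 in wild boar liver and 196.2 in Large White liver). In both cases wild boar liver was the lowest.

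**Figure D1:**
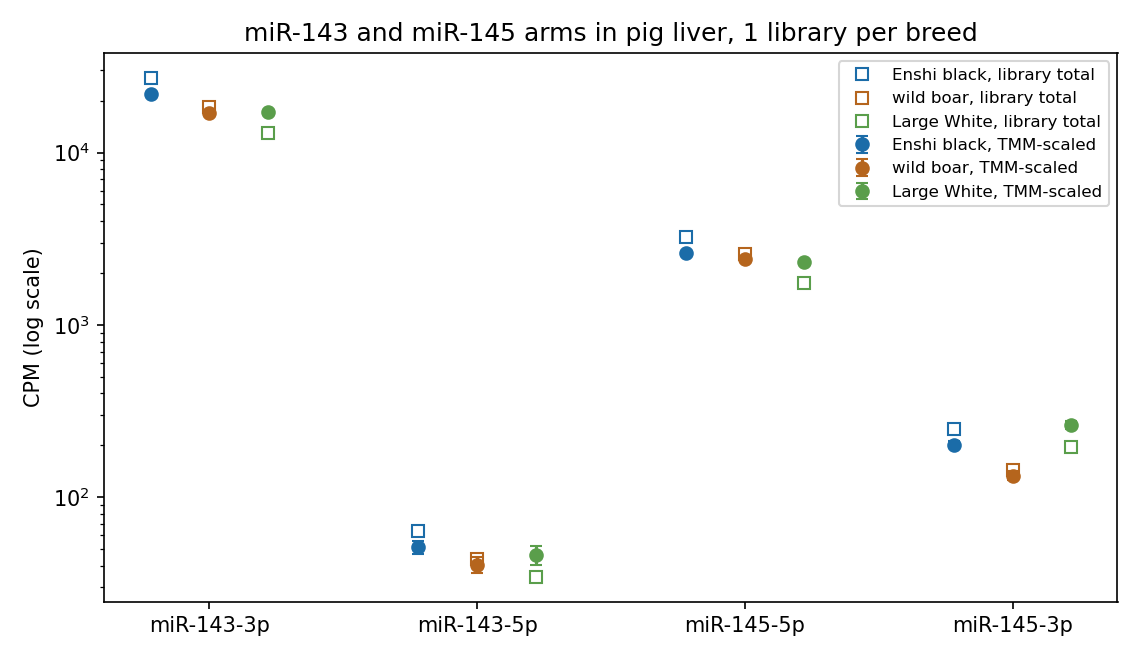
CPM on a log axis of the 4 arms in 1 library per breed. Filled points are TMM-scaled values with exact 95% counting intervals and open squares are values on the library total. The main arms lie well above their partners in each library, and miR-145-3p is lowest in wild boar liver at 133.5 CPM after TMM scaling.

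Comparisons between libraries called a miRNA higher or lower if its 2 levels differed at least 2-fold and the exact conditional-binomial interval of the ratio left out 1. None of the 4 members passed this rule between Enshi black and Large White liver, where 13.9% of the 208 miRNAs with a mean of at least 10 CPM did. None passed between wild boar and Large White liver, where 25.5% did, nor between Enshi black liver and wild boar liver, where 12.5% did. The 3 pairs share libraries and are not independent. In these bulk samples a lower share of cells of a type and less RNA per cell cannot be told apart.

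miR-143-3p was 1.27-fold higher in Enshi black liver than in Large White liver (1.26 to 1.28) and 1.29-fold higher in Enshi black liver than in wild boar liver (1.28 to 1.29). Its ratio of wild boar over Large White was 0.987 (0.979 to 0.995), and on library totals it was 1.42 (1.41 to 1.43), so its direction depended on the scaling. On library totals miR-143-3p was also 2.10-fold higher in Enshi black liver than in Large White liver (2.08 to 2.11) and passed the rule, as did 27.4% of miRNAs in that direction. Its log2 ratio in that pair exceeded the median of all 208 miRNAs by 0.47, and this excess does not depend on the scaling. Of the 208, 75.5% had a lower ratio there.

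miR-145-5p was 1.13-fold higher in Enshi black liver than in Large White liver (1.11 to 1.15), 1.04-fold higher in wild boar liver than in Large White liver (1.02 to 1.06) and 1.09-fold higher in Enshi black liver than in wild boar liver (1.07 to 1.11). On library totals these ratios were 1.86, 1.49 and 1.25. miR-143-5p had ratios of 1.12 (0.957 to 1.30), 0.881 (0.747 to 1.04) and 1.27 (1.10 to 1.46) for the same pairs after TMM scaling. The first 2 of these intervals held 1, so no difference was detectable there at this depth. On library totals they were 1.84 (1.58 to 2.15), 1.26 (1.07 to 1.49) and 1.46 (1.27 to 1.68).

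miR-145-3p departed from the other products. Its log2 ratio was −0.97 for wild boar over Large White (−1.08 to −0.86), just short of 2-fold with an interval that reached past it, while miR-143-3p, miR-143-5p and miR-145-5p had −0.02, −0.18 and 0.05. It was −0.38 for Enshi black over Large White (−0.47 to −0.28), while the same 3 products had 0.34, 0.16 and 0.18. For Enshi black over wild boar it was 0.60 (0.49 to 0.70), against 0.36, 0.34 and 0.12. On library totals the log2 ratio of miR-145-3p was −0.45 for wild boar over Large White and turned to 0.35 for Enshi black over Large White. Set against the median of all miRNAs, which a change of scaling cannot alter, miR-145-3p stood at −0.91 for wild boar over Large White and −0.25 for Enshi black over Large White, and at 0.65 for Enshi black over wild boar. In these pairs 16.3%, 31.25% and 87.0% of the 208 miRNAs had a lower ratio, in that order.

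**Figure D2:**
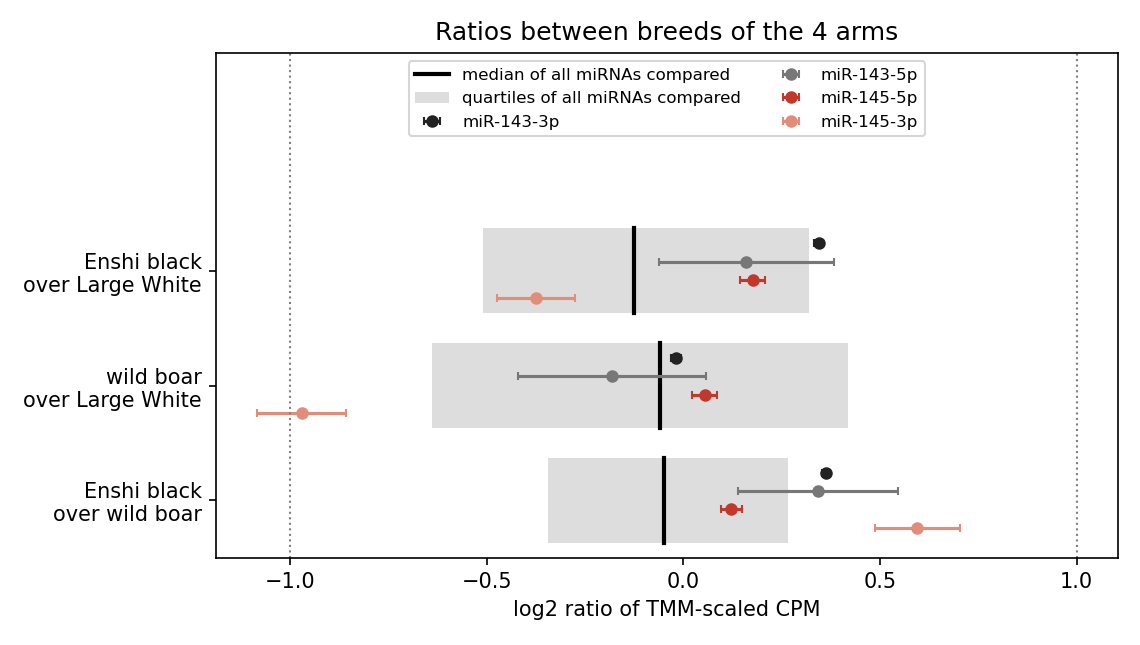
Log2 ratios of TMM-scaled CPM for the 4 arms in the 3 pairs of breeds, with exact 95% counting intervals. Grey bars span the quartiles and black lines mark the median of the 208 miRNAs compared, and dotted lines mark 2-fold. miR-145-3p is farthest from the other arms at −0.97 for wild boar over Large White.

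Arm shares are formed inside a library and do not depend on scaling. The 3p arm took 99.77% of mir-143 reads in Enshi black liver (exact interval, 99.74 to 99.79), 99.76% in wild boar liver (99.74 to 99.79) and 99.73% in Large White liver (99.70 to 99.77). That is 427, 420 and 375 reads of miR-143-3p for each read of miR-143-5p. The 3 intervals overlapped, and the ratio of these odds, with a Woolf interval, was 1.14 for Enshi black over Large White (0.977 to 1.32), 1.12 for wild boar over Large White (0.952 to 1.32) and 1.01 for Enshi black over wild boar (0.884 to 1.17).

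The 5p arm took 92.9% of mir-145 reads in Enshi black liver (92.5 to 93.2), 94.8% in wild boar liver (94.44 to 95.05) and 89.9% in Large White liver (89.4 to 90.4). These are 13.0, 18.0 and 8.87 reads of miR-145-5p for each read of miR-145-3p. None of the 3 intervals overlapped, and wild boar liver was the most one-sided. The odds of 5p over 3p were 1.47 times as high in Enshi black liver as in Large White liver (1.36 to 1.57) and 2.03 times as high in wild boar liver as in Large White liver (1.88 to 2.21). For Enshi black over wild boar the ratio of odds was 0.720 (0.667 to 0.777).

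**Figure D3:**
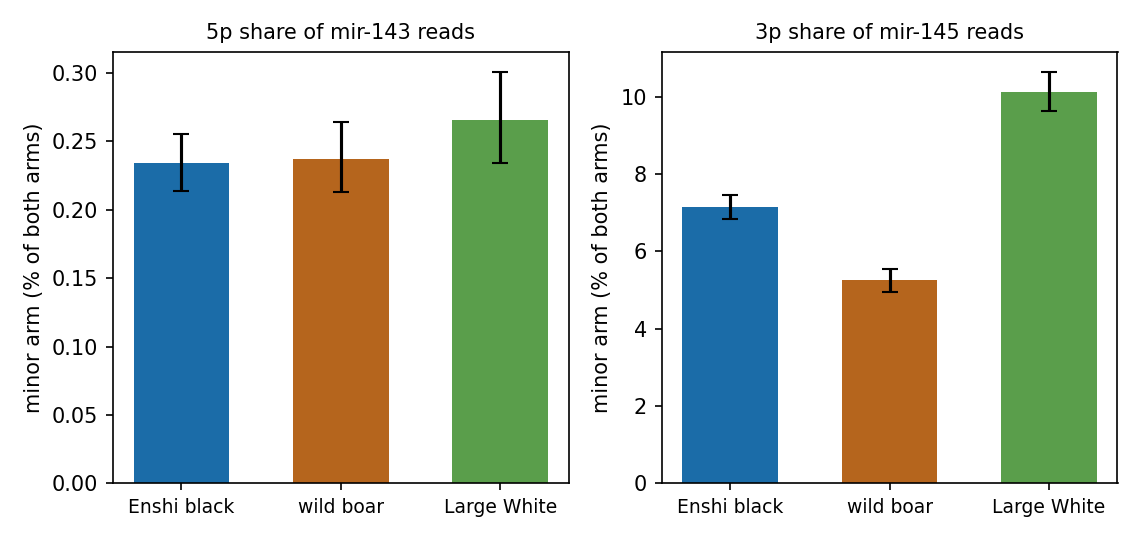
Share of the minor arm among the reads of both arms, in percent from 0, with exact Clopper-Pearson intervals, for mir-143 (left) and mir-145 (right) in 1 library per breed. The mir-143 shares of 0.234%, 0.237% and 0.266% overlap in their intervals, and the mir-145 shares of 7.15%, 5.25% and 10.1% do not.

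Over the 56 precursors with both arms named, a read on each arm and 100 or more reads in every library, the 5p share ranged by a median of 3.98 percentage points between the libraries. mir-143 ranged by 0.0319 points, the narrowest of the 56, and mir-145 by 4.88 points, the 27th widest. On the log2 odds of the arms, where shares near the limit are not compressed, the median range was 0.66. mir-143 had a range of 0.18 on that scale, again the narrowest, and mir-145 had 1.02, the 17th widest. mir-143 was also the 4th most one-sided of the 56 precursors by its mean dominant share of 99.75%, and mir-145 was the 25th at 92.5%. These are positions among the precursors of 3 libraries and carry no test.

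Within the cluster, the main arms kept a similar ratio. There were 8.35 reads of miR-143-3p per read of miR-145-5p in Enshi black liver (8.24 to 8.46), 7.06 in wild boar liver (6.96 to 7.17) and 7.43 in Large White liver (7.29 to 7.57). Enshi black liver was the highest and none of the intervals overlapped. With both arms of each precursor summed, the ratios were 7.77 in Enshi black liver, 6.71 in wild boar liver and 6.69 in Large White liver, and the intervals of the last 2 overlapped. The minor arms varied more, with 3.93 reads of miR-145-3p per read of miR-143-5p in Enshi black liver (3.56 to 4.35), 3.30 in wild boar liver (2.92 to 3.74) and 5.70 in Large White liver (4.98 to 6.54).

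The likeness of 2 miRNAs over the 3 libraries was measured as the root mean square difference of their log2 levels, each centred on its own mean, which is not altered by scaling. miR-143-3p differed by 0.083 from miR-143-5p and by 0.10 from miR-145-5p, and by 0.41 from miR-145-3p. Of the 127 other miRNAs with a mean of at least 100 CPM, 1 was nearer to miR-143-3p than miR-143-5p was, 3 were nearer than miR-145-5p and 76 were nearer than miR-145-3p. For miR-145-5p, 86 of the 127 were nearer than its own partner arm miR-145-3p, at a difference of 0.42.

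The 5 miRNAs nearest to miR-143-3p were miR-125a at 0.020, miR-199a-5p at 0.085, miR-532-5p at 0.10, miR-126-3p at 0.10 and miR-18a at 0.11, against a median of 0.35 over the 127. miR-199a-5p is typical of fibroblasts and stellate cells, and miR-126-3p is typical of endothelium. Other miRNAs of these cell types had other patterns after TMM scaling. The partner arm miR-199a-3p was highest in Large White liver (7054 CPM) and miR-126-5p in wild boar liver (1983 CPM). miR-125b, miR-99a and miR-152, of the mesenchymal and stellate list used below, were lowest in Enshi black liver on that scaling. These orders depend on the scaling. On library totals miR-199a-3p was at 8245, 6829 and 5291 CPM in the Enshi black, wild boar and Large White livers. miR-126-5p was at 2409, 2135 and 888 CPM, and both then had the order of miR-143-3p. miR-125b, miR-99a and miR-152 were then highest in wild boar liver and lowest in Large White liver. Nearest to miR-145-5p were miR-30a-5p at 0.019, miR-532-5p at 0.023, let-7d-5p at 0.035, miR-214 at 0.044 and miR-181c at 0.071, against a median of 0.29. miR-214 is a further fibroblast and stellate cell miRNA. Nearest to miR-145-3p were miR-301 at 0.023, miR-151-3p at 0.095 and miR-21 at 0.10, followed by miR-29c and miR-151-5p at 0.10 each. None of these 5 was among those of the main arms. With 3 libraries a pattern has few degrees of freedom, so a close match is a description of these libraries only.

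**Figure D4:**
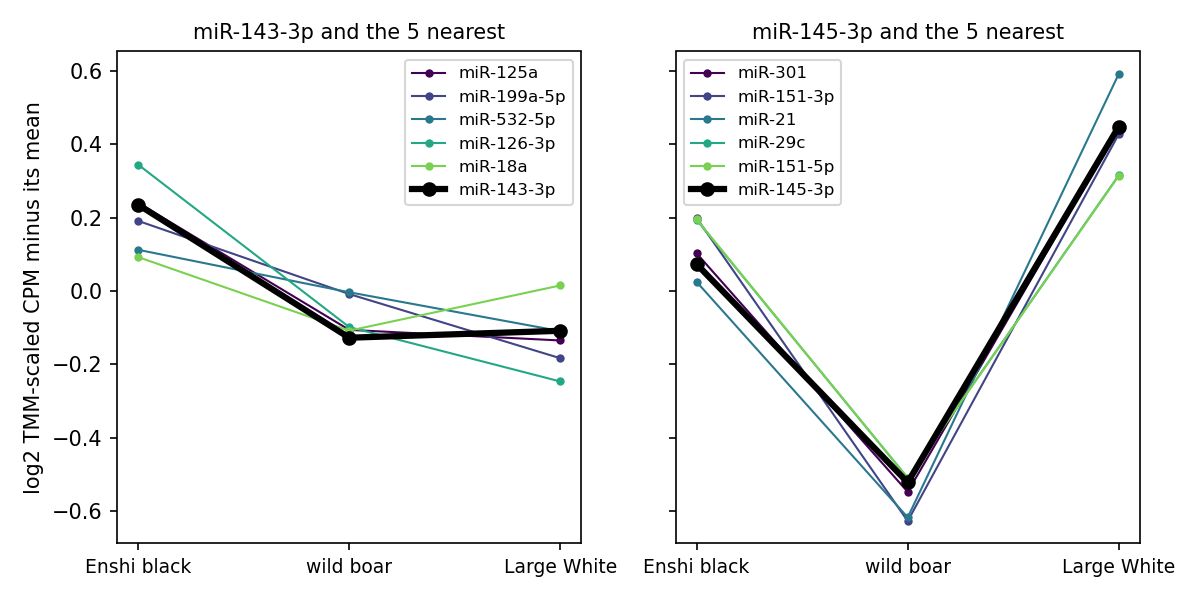
Log2 TMM-scaled CPM minus its mean over the 3 libraries, for miR-143-3p (left) and miR-145-3p (right) in black with the 5 miRNAs nearest to each in colour. miR-143-3p is highest in Enshi black liver, and miR-145-3p is lowest in wild boar liver and highest in Large White liver on this scaling.

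The main arms were also set against marker miRNAs of the same library, and against the hepatocyte miRNA miR-122 they were highest in Enshi black liver. There were 79.2 reads of miR-143-3p per 1000 reads of miR-122 in Enshi black liver (78.9 to 79.6), 46.4 in wild boar liver (46.1 to 46.6) and 31.2 in Large White liver (31.0 to 31.4). The Enshi black value was 2.54 times and the wild boar value 1.49 times the Large White value. miR-145-5p gave 9.49, 6.57 and 4.204 reads per 1000 of miR-122, or 2.26 and 1.56 times the Large White value. The hepatocyte list of 6 miRNAs, with no member at 0, summed to 347558, 458910 and 697679 CPM after TMM scaling in the Enshi black, wild boar and Large White livers, and to 430343, 494162 and 523270 CPM on library totals. Its part in the differences of miR-143-3p and miR-145-5p was not tested.

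Ratios to mesenchymal and endothelial miRNAs differed with the miRNA in the denominator. There were 1.36, 1.21 and 1.38 reads of miR-143-3p per read of miR-199a-5p in the Enshi black, wild boar and Large White livers. miR-145-5p gave 4.69, 4.42 and 4.74 reads per read of miR-214 in the same order. There were 1.58, 1.67 and 1.87 reads of miR-143-3p per read of the endothelial miR-126-3p. As given above, miR-214 was among the 5 patterns nearest to miR-145-5p, and the other two denominators were among the 5 nearest to miR-143-3p, so small differences in these ratios follow from that likeness. The ratios were therefore also formed against each compared miRNA of the lists, a step added after these values were seen.

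Against the 11 mesenchymal and stellate cell miRNAs, the ratio of miR-143-3p in Enshi black liver ran from 0.634 times the Large White value (miR-10b) to 1.68 times (miR-99a), with a median of 1.11 and 6 of the 11 above 1. The denominators miR-125b and miR-152 gave 1.63 and 1.67 times. In wild boar liver the range was 0.195 (miR-127) to 1.098 (miR-199b-3p) times, with a median of 0.874. miR-145-5p ran from 0.565 to 1.498 times in Enshi black liver and from 0.205 to 1.16 times in wild boar liver. These ratios thus lay on both sides of the Large White value. Against both arms of the endothelial miR-126 each main arm was below it, at 0.687 to 0.842 times in Enshi black liver and 0.589 to 0.937 times in wild boar liver. Against the 6 hepatocyte miRNAs each main arm was above it, with miR-143-3p at 1.65 to 3.78 times in Enshi black liver and 1.09 to 1.98 times in wild boar liver. Over 204 other compared miRNAs as denominators, the median for miR-143-3p was 1.39 times in Enshi black liver and 1.03 times in wild boar liver. Of these 204, 154 gave a ratio above 1 in Enshi black liver and 106 in wild boar liver. For miR-145-5p the medians were 1.23 and 1.08 times, with 136 and 113 of the 204 above 1. Part of the reads of several of these denominators, miR-199a-5p and miR-152 among them, is divided with another name.

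**Figure D5:**
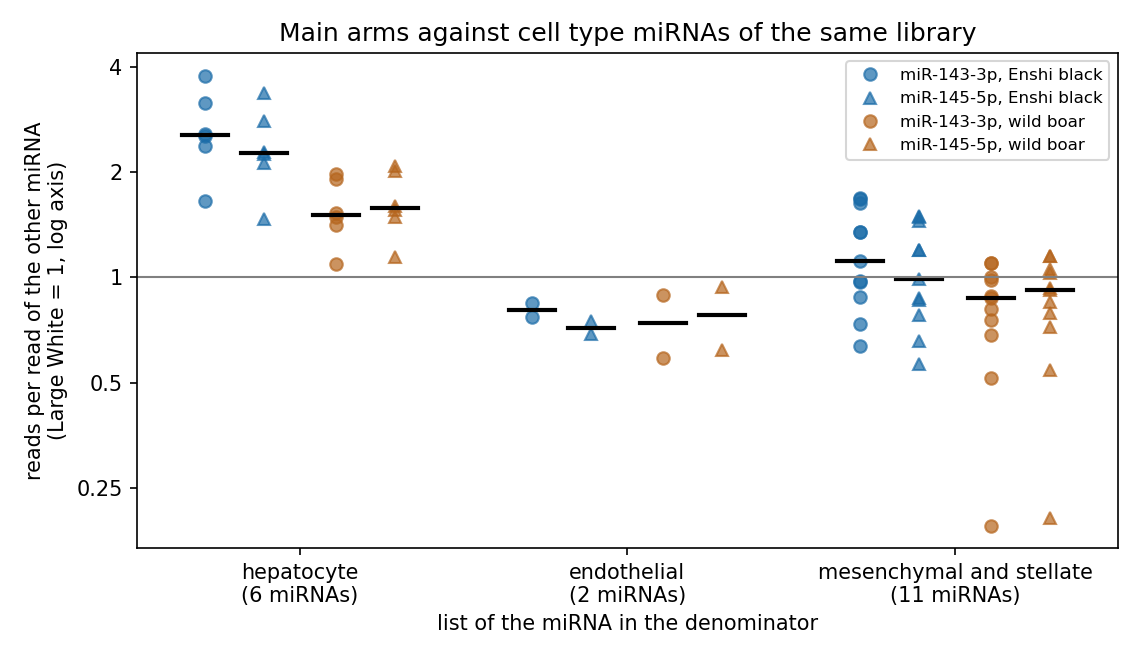
Reads of miR-143-3p (circles) and miR-145-5p (triangles) per read of each miRNA of 3 cell type lists in the same library, on a log axis and set to 1 in Large White liver. Each point is 1 denominator and black bars are medians: all points lie above 1 for the hepatocyte list and below 1 for the endothelial list, and those of the mesenchymal and stellate list lie on both sides of 1.

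Of 13 further miRNAs known to take part in smooth muscle growth and contraction, none passed the 2-fold rule between Enshi black and Large White liver after TMM scaling, where 13.9% of all miRNAs did in either direction. Their median log2 ratio was −0.01, against 0.17 for the 4 members and −0.12 for all 208 miRNAs. Between wild boar and Large White liver, 2 of the 13 were higher, where 10.1% of all miRNAs were, and 3 were lower, where 15.4% of all were. Those higher were miR-204 at 3.51-fold and miR-490 at 2.27-fold. Those lower were miR-1 at −2.27, miR-21 at −1.21 and miR-146a-5p at −1.41 on the log2 scale. The median of the 13 was 0.19, against −0.10 for the members and −0.06 for all. In Enshi black liver miR-1 and miR-146a-5p were 2.5-fold and 2.38-fold higher than in wild boar liver and miR-204 was lower (log2 ratio −2.23), with 6.25% of all miRNAs past the rule in each direction. The 13 had a median of −0.12, against 0.35 for the members and −0.05 for all. On library totals miR-21 and miR-146a-5p were no longer past 2-fold in wild boar over Large White, and miR-221-3p and miR-222 were, on the higher side. That made 4 of the 13 higher, where 21.6% of all miRNAs were, and 1 lower, where 9.13% were. In Enshi black over Large White miR-100, miR-10a-5p, miR-222 and miR-490 were then past 2-fold higher, or 4 of the 13, where 27.4% of all miRNAs were. The counts of miR-1, miR-100, miR-10a-5p and miR-146a-5p hold fractions, so part of their reads is divided with another name, and the reads of miR-490 are divided between its 2 precursors. The lists overlap: miR-1 and miR-133a-3p are also in the striated muscle list, and miR-100 is also in the mesenchymal and stellate list.

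Among 11 mesenchymal and stellate cell miRNAs besides the members, 1 was at least 2-fold higher in Enshi black liver than in Large White liver, where 2.4% of all miRNAs were, and none was lower, where 11.5% of all were. It was miR-10b at 2.0-fold, right at the threshold, from 932 and 268 reads. Part of its reads is divided with another name. In wild boar liver miR-127, an imprinted cluster miRNA, was 5.07-fold higher than in Large White liver, and it was lower in Enshi black liver than in wild boar liver (log2 ratio −1.56). No other of the 11 passed the rule in either pair. Of all miRNAs, 10.1% were higher in wild boar over Large White and 6.25% were lower in Enshi black over wild boar. The medians of the 11 were 0.19 for Enshi black over Large White, 0.18 for wild boar over Large White and 0.04 for Enshi black over wild boar, against −0.12, −0.06 and −0.05 for all 208 miRNAs. In the first pair the 11 spread from −0.41 for miR-99a to 1.001 for miR-10b on the log2 scale. On library totals 5 of the 11 were past 2-fold higher in Enshi black over Large White and 3 in wild boar over Large White, where 27.4% and 21.6% of all miRNAs were, and miR-143-3p was among the miRNAs past 2-fold in the first of these pairs.

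Markers of other cell types were present in each library. The 4 leucocyte miRNAs, with none at 0, summed to 10392 CPM in Enshi black liver, 3584 CPM in wild boar liver and 21245 CPM in Large White liver after TMM scaling. After that scaling miR-145-3p had the same order of libraries. So did the sum of the 13 smooth muscle miRNAs (93242, 89854 and 119023 CPM) and that of the striated muscle miRNAs given below. miR-21 and miR-26a made up 38717 and 40101 CPM of the Enshi black sum of the 13. On library totals neither sum had the order of miR-145-3p. The 13 then summed to 115452, 96756 and 89269 CPM and the striated muscle miRNAs to 276.2, 189.9 and 305.1 CPM. Within the leucocyte list miR-150 was instead highest in Enshi black liver after TMM scaling (304.7 CPM, against 286.3 CPM in Large White liver). On library totals the leucocyte list stayed highest in Large White liver (12867, 3859 and 15934 CPM in the order above), while miR-145-3p was highest in Enshi black liver. For single miRNAs of the leucocyte list, miR-142-3p was lower in wild boar liver than in Large White liver (log2 ratio −2.89), as were miR-142-5p (−2.12) and miR-150 (−1.65). The remaining one, miR-155-5p, did not pass the 2-fold rule (−0.76). Of all 208 miRNAs, 15.4% were lower in that pair after TMM scaling. The sum of the 3 erythroid miRNAs, with none at 0, also had the order of miR-145-3p on each scale. It was 3993, 3116 and 5483 CPM after TMM scaling and 4944, 3356 and 4112 CPM on library totals. Of the 3, miR-451 kept that order on each scale. miR-144 kept it after TMM scaling only, and was highest in Large White liver on library totals (1187 CPM). miR-486 kept it on neither scale. The part of these lists in the levels of miR-145-3p was not tested. After TMM scaling the 2 arms of the endothelial miR-126 summed to 15803, 12176 and 10381 CPM in the Enshi black, wild boar and Large White livers. That is the order of miR-145-5p. miR-126-3p had this order, while miR-126-5p was highest in wild boar liver (1983 CPM, against 1946 CPM in Enshi black liver). The 11 mesenchymal and stellate cell miRNAs summed to 57685, 64363 and 62144 CPM after TMM scaling, highest in wild boar liver. On library totals they summed to 71426, 69307 and 46609 CPM, highest in Enshi black liver, which is the order of miR-145-5p on that scale too. The part of any of these miRNAs in the levels of miR-145-5p was likewise not tested. Of 6 striated muscle miRNAs, the heart miRNA miR-208b was at 0 in each library and miR-133b had 5, 4 and 7 reads. After TMM scaling the 6 together summed to 223.0, 176.4 and 406.7 CPM, against 21882, 17015 and 17240 CPM of miR-143-3p in the same order. Of the 2 epithelial miRNAs, miR-205 had 9, 13 and 13 reads, and the 2 together summed to 14.2, 14.2 and 13.1 CPM after TMM scaling. The epithelial list had also named miR-200a, miR-200b, miR-200c and miR-141, which are absent from the deposited counts. Their levels are therefore unknown, and the same holds for miR-223 of the leucocyte list.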

How the data were processed

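The deposited values are expected counts, a read count for each mature miRNA and precursor per the file headers, with fractions where reads match several places. The deposited files also give RPM, the read count over the sum of all rows, which was not used. Per the submitters' processing notes the genome build was Sscrofa 10.2, while aligner, counter and annotation of miRNAs were not stated in any source used here. Counts were summed over precursors, rounded, and 6 names that repeat another name's reads were left out, which left 405 miRNAs, 208 of them with a mean of at least 10 CPM. CPM were scaled by TMM factors from those 208 (edgeR 4.0.16, R 4.3.3). Library totals were 7730934, 7824836 and 7343033 in the Enshi black, wild boar and Large White libraries. Ratios have exact conditional-binomial, shares exact Clopper-Pearson and odds ratios Woolf 95% intervals (Python 3.11.15, scipy 1.17.1). Reads carry no molecular identifiers. With 1 library per breed no p-value was computed. The ratio rule was tested on simulated data that held counting error only and were scaled by library totals. That test did not cover TMM scaling or variation between animals. The plan for the ratios had assumed counts without fractions. miRNAs named beside the members were the 5 nearest in pattern, the neighbours in rank and list members past 2-fold or among the most abundant. The members and lists were chosen with earlier results of these data known. Alternatives were other scalings, filters, thresholds and depths, and other denominators.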

Additional observations from a re-analysis of the deposited data

How the results depend on the processing

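Log2 ratios are given in the order Enshi black over Large White, wild boar over Large White and Enshi black over wild boar. For miR-143-3p they were 0.34, −0.019 and 0.36 as reported, 1.07, 0.50 and 0.56 on library totals, 0.90, 0.46 and 0.44 on totals without miR-122, and 0.46, 0.054 and 0.40 with DESeq2 1.42.0 size factors. They were 0.43, 0.023 and 0.41 with TMM factors from all miRNAs with a count, 0.37, −0.033 and 0.41 with factors from miRNAs of at least 100 CPM, and 0.48, 0.033 and 0.45 without rows of fractional counts. For miR-145-5p the same settings gave 0.90, 0.58 and 0.32 on library totals, 0.73, 0.53 and 0.20 on totals without miR-122, 0.29, 0.13 and 0.16 with DESeq2, and 0.26, 0.10 and 0.17 with factors from all miRNAs. Factors from miRNAs of at least 100 CPM gave 0.16 for Enshi black over wild boar, and leaving out fractional rows gave 0.32, 0.11 and 0.21. Both main arms were higher in the Enshi black library under each of these settings, while the sign of miR-143-3p in wild boar over Large White depended on the setting. One factor moves all ratios of a pair together: on library totals the median of all 208 miRNAs shifted by 0.72, 0.52 and 0.20 from its TMM value. The count of members past the rule was above 0 in 2 settings. It was 1 on library totals in Enshi black over Large White (miR-143-3p higher). At 1.5-fold it was 1 in wild boar over Large White and 1 in Enshi black over wild boar (miR-145-3p, lower and higher). Of all 208 miRNAs, 5 were higher and 24 lower in Enshi black over Large White after TMM scaling, 57 and 6 when scaled to library totals, and 37 and 8 once miR-122 was taken out of the total. In wild boar over Large White 21 were higher and 32 lower, 45 and 19 when scaled to library totals, and 43 and 19 with miR-122 taken out. In Enshi black over wild boar they were 13 and 13, and 15 and 7 on library totals. After TMM scaling 29, 53 and 26 miRNAs passed at 2-fold in either direction, 72, 94 and 55 at 1.5-fold, and 3, 11 and 3 at 4-fold. Over every miRNA with a count, 55, 86 and 50 passed at 2-fold. Thinning to the smallest library kept each member ratio and arm share within its counting interval. Reads of miR-143-3p per 1000 of miR-192, miR-194a and miR-148a-3p summed, in place of miR-122, were 307.3, 185.0 and 118.5 in the Enshi black, wild boar and Large White libraries, the same order at a higher ratio since the denominator is smaller. With both arms of each precursor the mir-143 to mir-145 ratio was 7.77, 6.71 and 6.69. The 5 nearest patterns held on library totals, since scaling cannot alter them, and with a minimum of 10 CPM 2 of the 5 for miR-143-3p and 4 of the 5 for miR-145-5p stayed. No paired analysis was possible because each breed has 1 library. Counts of miR-143-5p, from 253 to 491 reads, limit what could be told apart for mir-143 arms.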
